A study of Mus musculus with 93 samples.

Results

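Macrophages sorted from mouse embryos at embryonic day E12.5 were set against each other by tissue: liver (2 libraries) against brain (2 libraries) and limbs (2 libraries). These 6 libraries are all those labelled Mac, for macrophage, at E12.5, of 74 Mac libraries and 93 libraries in the whole series. The other libraries hold macrophages of other ages and tissues and progenitor stages. Libraries were made from polyA RNA by SMART-Seq2, which copies whole transcripts and needs little input. The labels give the same cell type, age and molecule for all 6 libraries, name no strain, genotype, sex or sorting gate, and describe no treatment. Per the series description the replicates are technical and biological without saying which. The p-values therefore measure the spread between the libraries in each fit, which may be technical.

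Tissue-resident macrophages of the early embryo descend largely from yolk sac progenitors that seed each organ and then take on organ-specific programs. In liver they become Kupffer cells, which line the sinusoids and take up particles, old red cells and iron. In the fetus they also sit at the centre of erythroblastic islands, where they hold maturing erythroblasts and engulf the nuclei these expel. In brain they become microglia, which use the transcription factor Sall1 and sense nucleotides through P2ry12. Spic is a transcription factor needed in mice for red pulp macrophages of the spleen, and Clec4f is a lectin used as a marker of mouse Kupffer cells.

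Values are log2 levels per gene, built from the authors' normalized log2 values per transcript. A gene at 5.42, the common floor, was not detected in that library. The file holds no counts, so depth is unknown, and the number of transcripts above the floor stands in for it: from 20319 in limbs replicate 2 to 24828 in brain replicate 2, of 37521. A difference of 1 is a doubling. A gene was called when limma's Benjamini-Hochberg adjusted p was under 0.05 and the difference at least 1 in size. Where a gene lies at the floor in brain and limbs, its difference depends on where the floor was set.

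Brain replicate 1 and limbs replicate 2 stood apart from the rest. The mean level of 24 macrophage core genes, such as the CSF1 receptor gene Csf1r and the complement genes C1qa to C1qc, was 12.25 and 12.05 in liver, 8.68 and 12.09 in brain, and 13.01 and 11.65 in limbs. The mean of the neural genes was 6.16 and 6.54 in liver, 10.61 and 9.47 in brain, and 6.28 and 6.02 in limbs. Brain replicate 1 was thus lowest in core genes and highest in neural genes, and limbs replicate 2 had the highest erythroid mean outside liver (8.62). Across genes, the Pearson correlation of the level was 0.806 between the liver libraries, 0.7 between the brain libraries and 0.525 between the limbs libraries. Each main count is given below with and without these 2 libraries.

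The labels were checked against Clec4f, Spic and Sall1. Clec4f (chromosome 6, 83644542 to 83656187, minus strand, mm10) was at 11.28 and 10.46 in liver, 5.82 and 6.29 in brain, and 6.63 and 5.42 in limbs. Spic (chromosome 10, 88674772 to 88685015, minus strand) was at 12.98 and 10.70 in liver, 5.47 and 5.53 in brain, and 5.42 and 6.32 in limbs. Both liver libraries lay above all 4 others for either gene, and Sall1 lay at the floor in both liver libraries. The core genes were detected in liver, brain replicate 2 and both limbs libraries at means of 11.65 to 13.01. The levels of these genes therefore go with the labels, except that brain replicate 1 carried the macrophage core genes at a lower level. Genes of other cells were present too. In liver the erythroid mean was 13.45 and 12.36, above the core mean of 12.25 and 12.05. In brain the neural mean was 10.61 and 9.47.

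Promoter sequences are shown for 4 genes that were higher together in liver macrophages and for Sall1, which was at the floor there, because they let the upstream regions of genes with opposite patterns be read side by side. Each is the 250 bases before the RefSeq start on GRCm38.p6, written 5′ to 3′ on the gene's own strand. For Spic that start lies inside the gene span given above, and so does its window. Capitals mark GAGGAA or its reverse complement TTCCTC, letters found in binding sites of ETS factors such as PU.1. The windows are Marco chr1:120505025-120505274 (minus), Cd5l chr3:87357631-87357880 (plus), Spic chr10:88683024-88683273 (minus), Timd4 chr11:46810549-46810798 (plus) and Sall1 chr8:89044163-89044412 (minus, the first of 3 listed starts).
Marco: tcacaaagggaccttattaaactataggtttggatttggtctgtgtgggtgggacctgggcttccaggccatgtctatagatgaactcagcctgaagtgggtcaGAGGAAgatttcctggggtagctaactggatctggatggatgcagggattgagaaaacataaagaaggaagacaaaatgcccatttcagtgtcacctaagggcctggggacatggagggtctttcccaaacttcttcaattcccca
Cd5l: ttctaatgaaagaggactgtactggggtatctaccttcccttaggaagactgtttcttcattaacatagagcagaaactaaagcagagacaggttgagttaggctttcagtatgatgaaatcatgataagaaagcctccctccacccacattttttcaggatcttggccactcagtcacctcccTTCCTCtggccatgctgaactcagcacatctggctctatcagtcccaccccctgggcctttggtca
Spic: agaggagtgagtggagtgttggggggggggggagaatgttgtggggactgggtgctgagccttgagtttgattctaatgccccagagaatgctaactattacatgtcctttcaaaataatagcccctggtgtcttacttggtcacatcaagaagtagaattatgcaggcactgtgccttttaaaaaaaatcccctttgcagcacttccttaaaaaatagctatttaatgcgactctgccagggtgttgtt
Timd4: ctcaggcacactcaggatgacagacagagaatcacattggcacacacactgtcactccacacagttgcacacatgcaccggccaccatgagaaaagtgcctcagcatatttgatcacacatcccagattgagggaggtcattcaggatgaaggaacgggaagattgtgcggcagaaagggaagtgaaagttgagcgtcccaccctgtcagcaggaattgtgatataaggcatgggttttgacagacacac
Sall1: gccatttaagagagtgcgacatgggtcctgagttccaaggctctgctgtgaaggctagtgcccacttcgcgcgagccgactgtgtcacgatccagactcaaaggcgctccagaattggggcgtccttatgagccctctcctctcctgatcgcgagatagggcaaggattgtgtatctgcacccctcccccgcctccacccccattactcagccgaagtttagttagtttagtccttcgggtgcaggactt
The letters occur in Marco 146 bases before the start and in Cd5l, as the reverse complement, 66 bases before it. They are not in these windows of Spic, Timd4 or Sall1. Over both strands, 7639 of 32851 RefSeq promoter windows of this length (23.3%) hold them.

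Kupffer cell genes were higher in liver macrophages than in those of brain and limbs, already at E12.5. Across all genes, 136 of 11816 tested were called higher in liver (1.15%) and 1 was called lower (0.00846%). Of 18 Kupffer cell genes, 16 passed the filter on low levels and 11 of them rose: Nr1h3, Spic, Clec4f, Cd5l, C6, Marco, Fcna, Clec1b, Cdh5, Timd4 and Il18bp. In all 16 both liver libraries lay above the 4 others, which held for 2003 of all genes tested (17%). Of the 18 listed, 2 were undetected in both brain libraries and 3 in both limbs libraries. Any tested gene at the floor in all 4 passed the filter through liver and had to lie above. The median difference of the 16 genes was 4.70, beside 0.28 over all genes tested. Genes of this list may have been chosen by others on data that include these samples, so its direction is not independent evidence.

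Marco, a scavenger receptor that binds bacteria and particles, was at 14.44 and 13.35 in liver, 5.84 and 6.29 in brain, and 7.02 and 6.33 in limbs. The groups were far apart, with a difference of 7.53 ± 0.64 (SE, limma adjusted p = 0.037). Fcna, which encodes ficolin A, a lectin of the complement system, was at 15.49 and 14.90 in liver, 7.74 and 8.09 in brain, and 7.95 and 7.20 in limbs. It was detected in all 6 libraries, so its difference of 7.45 ± 0.48 (SE, limma adjusted p = 0.0252) does not rest on the floor. Cd5l, a secreted scavenger protein of macrophages, was at 14.90 and 12.98 in liver, 6.94 and 6.84 in brain, and 7.48 and 6.36 in limbs. Its difference was 7.03 ± 0.73 (SE, limma adjusted p = 0.037).

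Nr1h3, the nuclear receptor LXR alpha that Kupffer cells depend on, was at 12.95 and 13.36 in liver, 5.42 and 7.45 in brain, and 5.65 and 5.42 in limbs. It was at or near the floor in 3 of the 4 other libraries, and the difference was 7.17 ± 0.81 (SE, limma adjusted p = 0.037). For Spic the difference was 6.16 ± 0.90 (SE, limma adjusted p = 0.0405) and for Clec4f 4.83 ± 0.77 (SE, limma adjusted p = 0.0475). Timd4, a receptor for phosphatidylserine on dying cells, was at 12.17 and 12.16 in liver, 6.06 and 7.51 in brain, and 6.99 and 7.27 in limbs. The liver libraries hardly differed from each other in Timd4, and the difference was 5.21 ± 0.68 (SE, limma adjusted p = 0.0392).

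The other 5 tested Kupffer cell genes did not pass. Id1 and Id3, targets of BMP signalling, had differences of 3.72 (limma adjusted p = 0.119) and 3.16 (limma adjusted p = 0.113). Hmox1, the heme oxygenase, was at 15.43 and 15.66 in liver, 8.78 and 12.43 in brain, and 13.12 and 11.35 in limbs. Its groups did not overlap, but brain and limbs spread widely, and the difference of 4.13 had an adjusted p of 0.186 in limma. The iron exporter gene Slc40a1 differed by 3.55 (limma adjusted p = 0.215) and the folate receptor gene Folr2 by 2.56. Vsig4 and Cd163, which mark adult Kupffer cells, did not pass the filter: Vsig4 was at most 6.75 in any library, and Cd163 was above the floor only in liver replicate 1 (8.27).

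With the spread estimated from 35 libraries, the Mac of E10.25 to E14.5, 279 genes were called higher in liver (2.36%) and 163 lower (1.38%). Of the Kupffer cell genes 14 rose, with Hmox1, Slc40a1 and Id1 added. That fit takes 1 spread per gene for all 35 libraries, most of them outside this comparison. Without brain replicate 1 and limbs replicate 2, that fit called 181 of 10711 genes higher (1.69%) and 22 lower (0.205%), and 10 of the 16 Kupffer cell genes rose, with Clec1b, Hmox1, Slc40a1 and Id1 not called. The differences of Marco (7.24), Fcna (7.17), Nr1h3 (6.60), Cd5l (6.78), Spic (6.36) and Clec4f (4.41) were close to those with all libraries. With the spread of the E12.5 libraries alone, leaving out either liver library or either brain library ended all calls.

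**Figure D1:**
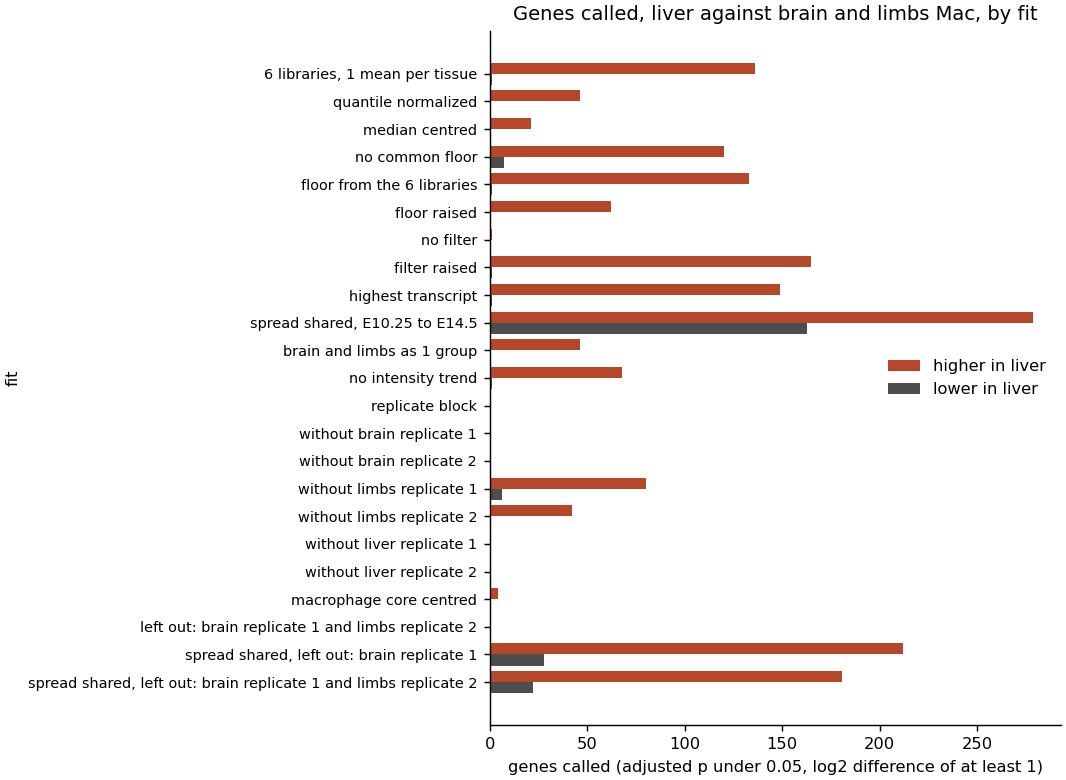
The bars give the number of genes called higher and lower in liver against brain and limbs (horizontal axis) in each fit (rows). The fit of 6 libraries called 136 genes higher and 1 lower, and the shared spread called 279 and 163. Without brain replicate 1 and limbs replicate 2, the shared spread called 181 and 22.

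**Figure D2:**
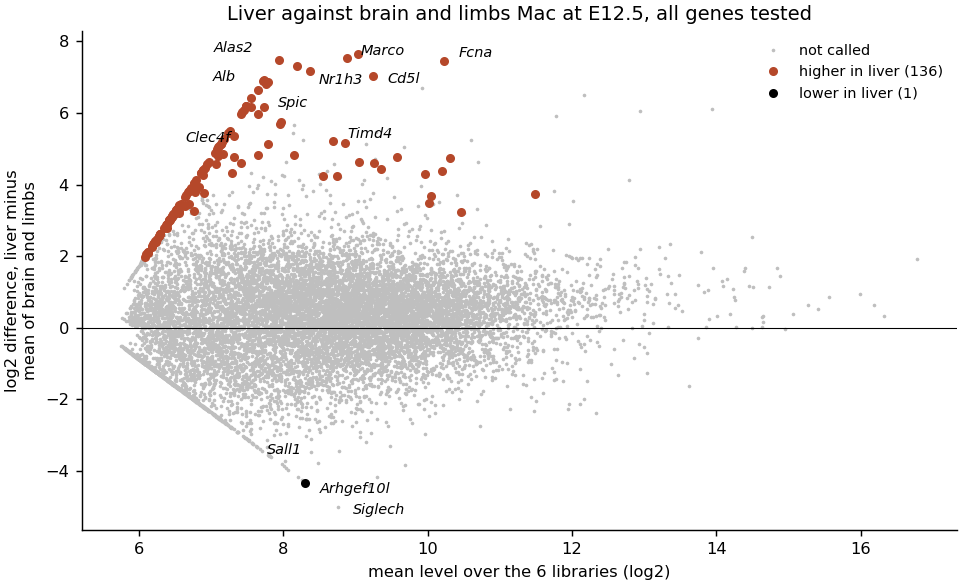
The plot shows, for each of the 11816 genes tested, the log2 difference of liver minus brain and limbs (vertical axis) against the mean log2 level (horizontal axis), with called genes coloured. Called genes lie almost all above 0, with Marco and Fcna among the highest and Arhgef10l the 1 called gene below.

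**Figure D3:**
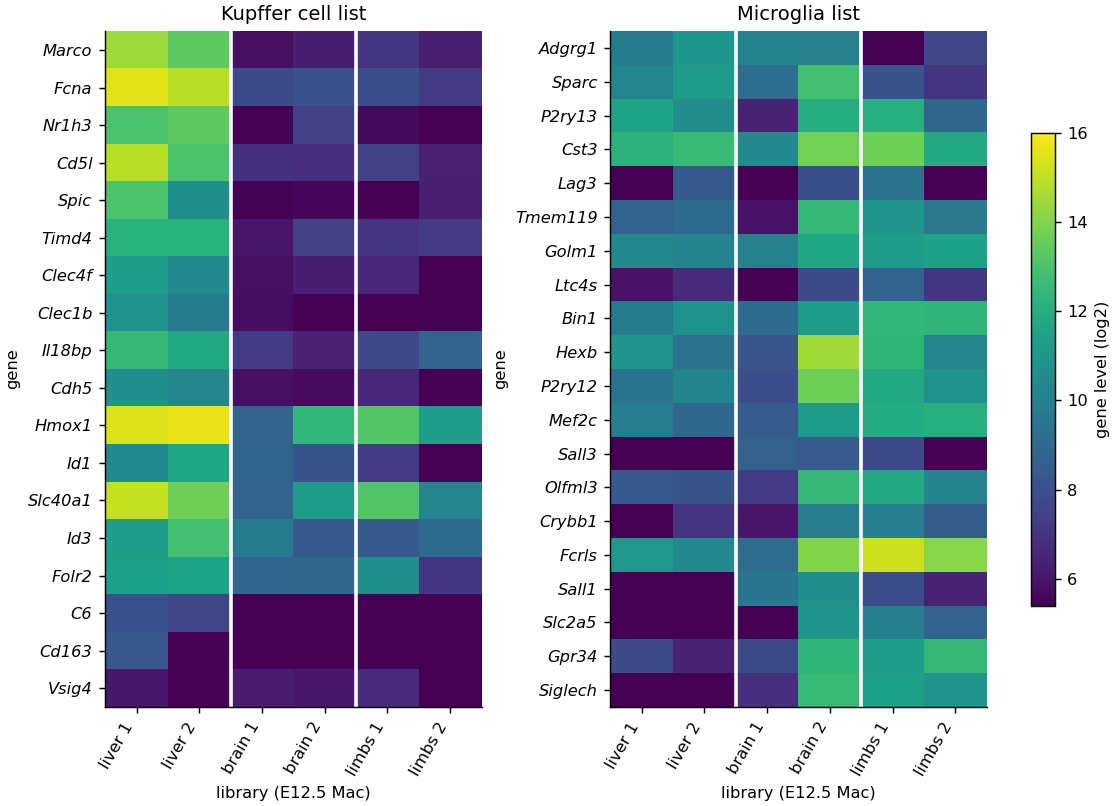
The heat maps show the log2 level of the 18 Kupffer cell genes and 20 microglia genes (rows) in each E12.5 library (columns, liver, brain, limbs). Most Kupffer cell genes are high in both liver libraries, and Sall1 and Siglech are among the microglia genes at the floor there. Brain replicate 2 is brighter than brain replicate 1 in most microglia genes.

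Genes of iron handling and of erythroblastic islands held a few of the calls. Of all genes tested, 1.15% were called higher, and 2.36% with the shared spread, and the median difference was 0.28. Of 18 iron and heme genes, 16 were tested and 2 rose, Spic and Tfrc, with a median difference of 2.17. Tfrc, the transferrin receptor gene, which erythroblasts also express strongly, was at 12.54 and 12.70 in liver, 9.56 and 8.25 in brain, and 10.01 and 9.72 in limbs (difference 3.24 ± 0.52 SE, limma adjusted p = 0.0494). With the shared spread Tfrc was not called (adjusted p = 0.0664), and Spic, Hmox1, Slc40a1, the ferritin gene Fth1, the ferrireductase gene Steap3 and the biliverdin reductase gene Blvrb were. Spic alone was called of this list without brain replicate 1 and limbs replicate 2. Of 16 island genes, 15 were tested and 2 rose, Vcam1 and Klf1. Vcam1, an adhesion molecule by which island macrophages hold erythroblasts, was at 13.01 and 11.64 in liver, 9.64 and 8.50 in brain, and 6.01 and 6.74 in limbs. Its difference was 4.60 ± 0.68 (SE, limma adjusted p = 0.0413), and brain lay between liver and limbs. Klf1, a transcription factor of erythroid cells that island macrophages are also reported to use in mice, was at 11.55 and 11.78 in liver, 5.42 and 5.55 in brain, and 5.42 and 5.59 in limbs (difference 6.17 ± 0.67 SE, limma adjusted p = 0.037). Klf1 is in the erythroid list too.

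Receptors for debris and genes of complement rose in part. Of 20 scavenger and engulfment receptors, 17 were tested and 4 rose: Marco, Clec4f, Timd4 and Stab2. Stab2, a hyaluronan receptor of liver sinusoidal endothelium, averaged 11.52 ± 0.68 in liver (SD, n = 2) and was at the floor in all brain and limbs libraries (difference 6.10 ± 0.69 SE, limma adjusted p = 0.037). Of 18 complement genes, 16 were tested and 4 rose. Cfp, which encodes properdin, a stabilizer of the alternative pathway convertase, was at 13.78 and 13.17 in liver, 7.78 and 8.54 in brain, and 8.90 and 9.68 in limbs (difference 4.75 ± 0.51 SE, limma adjusted p = 0.037). Cd55, an inhibitor of that convertase, rose by 4.87, and C3 and C6, which hepatocytes also make, rose by 3.35 and 2.42 from the floor. The medians of these lists were 1.45 for the receptors and 1.32 for complement, beside 0.28 over all genes tested. Of all genes tested, 1.15% were called higher.

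Of 20 nuclear receptor and cholesterol efflux genes, all tested, Nr1h3 alone rose, beside 1.15% of all genes tested. The median difference was 1.17, beside 0.28 over all genes tested. Nr1h2, which encodes the sister receptor LXR beta, was at 9.32 and 10.84 in liver, 8.66 and 9.71 in brain, and 11.95 and 11.03 in limbs. Its groups overlapped, with a difference of -0.26 (limma adjusted p = 0.866). The cholesterol exporter gene Abcg1, an LXR target, was at 12.94 and 11.92 in liver, 8.35 and 10.28 in brain, and 9.82 and 9.55 in limbs, without overlap (difference 2.93, limma adjusted p = 0.134). Of 18 cholesterol synthesis genes, all tested, none was called (median 0.30).

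Genes of other cells that a liver sort could hold were higher in the liver libraries as well. Of 20 erythroid genes, 19 were tested and 9 rose, among them Slc4a1, Epb42, Rhag, Alas2, Gata1 and Klf1. Of all genes tested, 1.15% were called higher. Of the 19 erythroid genes, 4 were undetected in both brain libraries and 7 in both limbs libraries. Any at the floor in all of these passed the filter through liver and had to lie above. In all 19 both liver libraries lay above the others, beside 17% of all genes tested, with a median difference of 5.76. Under the shared spread 15 rose, and 16 without brain replicate 1 and limbs replicate 2. The mean level of the erythroid genes was 13.45 and 12.36 in liver, 7.23 and 6.61 in brain, and 6.70 and 8.62 in limbs. Their summed level was 20.12 and 18.51 in liver, 13.21 and 11.30 in brain, and 11.53 and 16.71 in limbs, beside 17.72 and 17.21, 11.53 and 13.22, and 14.33 and 12.31 for the Kupffer cell genes in the same order of tissues. In bulk RNA, fewer cells of a type and less RNA per cell cannot be told apart.

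Alas2, the first enzyme of heme synthesis in erythroid cells, was at 13.32 and 12.56 in liver, 5.52 and 5.42 in brain, and 5.42 in both limbs libraries (difference 7.49 ± 0.70 SE, limma adjusted p = 0.037). Slc4a1, which encodes the red cell anion exchanger band 3, was at 12.62 and 12.12 in liver, and at most at 5.78 in brain and 5.42 in limbs (difference 6.85 ± 0.70 SE). The adult globin genes were among the highest in liver: Hba-a2 was at 18.70 and 17.32 in liver, 12.13 and 9.74 in brain, and 10.08 and 15.63 in limbs. Hba-a2 was not called, and limbs replicate 2 lay far above limbs replicate 1. The copies Hba-a1 and Hba-a2, and Hbb-bs and Hbb-bt, are nearly identical and their levels cannot be separated with certainty. Of the 12 called genes with the largest rise, Tmcc2 (7.65), Alas2, Hemgn (6.92), Slc4a1, Rhd (6.80) and Kel (6.63) stood beside Marco, Fcna, Nr1h3 and Cd5l, and the remaining 2 were Afp and Alb. Hemgn is a nuclear protein of blood-forming cells, and Rhd and Kel encode red cell blood group proteins.

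Of 19 hepatocyte genes, 15 were tested and 7 rose, beside 1.15% of all genes tested, with a median difference of 2.90. Afp, the fetal plasma protein alpha-fetoprotein, was at 12.99 and 13.15 in liver, 5.42 and 6.14 in brain, and 5.42 and 6.03 in limbs (difference 7.31 ± 0.70 SE, limma adjusted p = 0.037). Alb, albumin, was at 12.03 and 12.62 in liver and at the floor in brain and limbs (difference 6.90 ± 0.69 SE). The hepatocyte transcription factor gene Hnf4a was at the floor in liver replicate 1 and at 7.0 in replicate 2. Of 12 endothelial genes, 11 were tested and 6 rose: Esam, Cdh5, Stab2, Cldn5, Emcn and Kdr. Cdh5 and Stab2 are thus counted in macrophage lists too. Under the shared spread 8 hepatocyte and 6 endothelial genes rose without brain replicate 1 and limbs replicate 2. The endothelial mean was 9.11 and 9.82 in liver, 5.62 and 5.90 in brain, and 6.30 and 5.77 in limbs. The hepatocyte mean was 8.54 and 9.34 in liver, 6.05 and 6.04 in brain, and 5.91 and 5.77 in limbs.

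Of the 136 genes called higher, 24 were in a list of another cell type, 11 in the Kupffer cell list, 1 (Cdh5) in both, and 97 in no list. In 80 of the 136 all 4 brain and limbs libraries were at the floor, so these passed the filter through liver and had to differ. The part that RNA of erythroid cells, hepatocytes or endothelium has in the Kupffer cell differences was not tested. The macrophage core genes were at like means in liver and in limbs and brain replicate 2. The Kupffer cell, erythroid, hepatocyte and endothelial means were each higher in both liver libraries than in the 4 others. From liver replicate 1 to replicate 2 the Kupffer cell mean went from 11.92 to 11.31 and the erythroid mean from 13.45 to 12.36. The hepatocyte and endothelial means went the other way, from 8.54 to 9.34 and from 9.11 to 9.82.

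**Figure D4:**
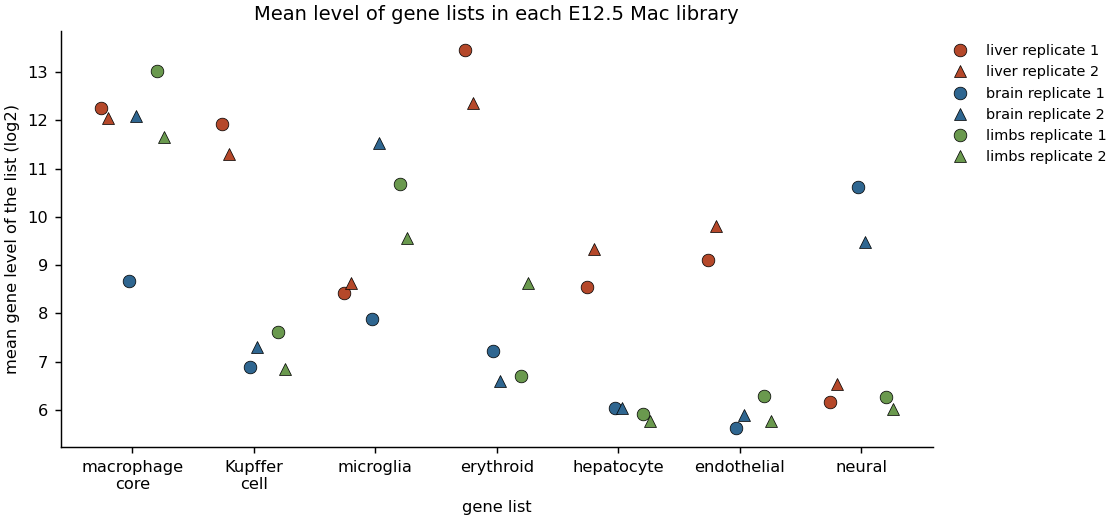
The plot gives the mean log2 level of each gene list (vertical axis) in each library, by tissue in the order liver, brain, limbs, with circles for replicate 1 and triangles for replicate 2. The Kupffer cell, erythroid, hepatocyte and endothelial means are highest in both liver libraries, and brain replicate 1 has the lowest core mean and the highest neural mean.

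Other myeloid and blood lists held few calls. Of 10 neutrophil granule genes, 2 were tested and Mpo, the myeloperoxidase gene, rose by 5.20 from the floor, at 10.66 and 10.60 in liver. None was called of the 4 tested monocyte genes (median -0.12), the 5 megakaryocyte genes (2.07), the 2 mast cell genes (1.47) or the 8 progenitor genes (-0.03). All 5 megakaryocyte differences were above 0. In 4 of the 5 both liver libraries lay above all others, beside 17% of all genes tested. Of the 9 measured, 7 were undetected in both brain libraries and 8 in both limbs libraries. Any tested gene at the floor in all of these passed the filter through liver and had to lie above. The megakaryocyte mean was 7.18 and 8.35 in liver, 6.0 and 5.74 in brain, and 6.27 and 6.08 in limbs. The platelet integrin gene Itga2b was at the floor in brain and limbs and reached 9.99 in liver replicate 2, which did not pass (difference 3.32, limma adjusted p = 0.127). Of 9 epithelial genes, 1 was tested and called, Krt18, at 7.73 and 7.69 in liver and at the floor elsewhere. None of 15 neural (-1.67), 13 mesenchyme (-0.60) or 3 muscle genes (-0.91) tested was called in this comparison, nor of 4 sex-linked genes.

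No microglia gene was called in this comparison. All 20 were tested, and the median difference was -1.19, with 3 differences above 0. Sall1 (chromosome 8, 89027235 to 89044162, minus strand), the transcription factor that keeps microglia identity in mice, was at 5.42 in both liver libraries, 9.52 and 10.73 in brain, and 7.96 and 6.40 in limbs. All brain and limbs libraries lay above liver, with brain highest, and the difference was -3.23 ± 0.82 (SE, limma adjusted p = 0.176). Liver libraries lay below all 4 others in Sall1 and Siglech of this list, which held for 559 of all genes tested (4.73%). With the shared spread Sall1 was lower in liver (adjusted p = 0.0177 in limma, and 0.017 with a difference of -3.92 without brain replicate 1 and limbs replicate 2).

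Siglech, a sialic acid receptor of microglia, was at the floor in both liver libraries, 6.85 and 12.55 in brain, and 11.41 and 10.93 in limbs. Brain replicate 2 was highest, both limbs libraries came next and brain replicate 1 was lower than these, and the shared spread gave a difference of -5.01 (limma adjusted p = 0.0193). P2ry12 was at 9.49 and 10.18 in liver, 7.96 and 13.65 in brain, and 11.78 and 10.79 in limbs. Tmem119, a surface marker of microglia, was at 8.76 and 9.09 in liver, 5.93 and 12.48 in brain, and 10.90 and 9.59 in limbs. Liver lay inside the spread of the brain libraries for both genes, and brain replicate 2 was the highest of the 6. Without brain replicate 1, the shared spread called 212 of 11014 genes higher (1.92%) and 28 lower (0.254%), among the lower 4 microglia genes: Sall1, Siglech, the Fc receptor-like gene Fcrls (-3.60) and the lysophosphatidylserine receptor gene Gpr34 (-4.98). Without limbs replicate 2 as well, Gpr34 was no longer called.

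The 1 gene called lower in liver was Arhgef10l (chromosome 4, 140514485 to 140666012, minus strand), which encodes a guanine nucleotide exchange factor. It was at 5.42 in both liver libraries, 8.46 and 8.66 in brain, and 10.71 and 11.19 in limbs. The groups did not overlap, and the difference was -4.33 ± 0.66 (SE, limma adjusted p = 0.0424). With the shared spread it was called (adjusted p = 0.02 in limma), and without brain replicate 1 and limbs replicate 2 it was not (-4.26, adjusted p = 0.116).

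The macrophage core and most signalling lists held no call in this comparison. None of the 24 core genes was called, with a median of 0.86 that was -0.01 without brain replicate 1. Csf1r was at 14.44 and 14.46 in liver, 10.40 and 14.66 in brain, and 15.78 and 15.41 in limbs (difference 0.39, limma adjusted p = 0.893). Brain replicate 1 alone was low. With the shared spread the lysozyme gene Lyz2 was called higher (3.81, limma adjusted p = 0.0432), and not without brain replicate 1 (adjusted p = 0.277). None was called of 9 tested skin and interstitial macrophage genes (median 0.04), 22 BMP and TGF-beta genes (0.56), 20 CSF1 receptor and cytokine receptor genes (0.13), 17 chemokines and cytokines (0.65), 7 MHC class II genes (-0.99), 15 interferon response genes (1.61), 29 cell cycle genes (0.79) or 12 immediate early and stress genes (1.0). The shared spread called Id2, Tgfbr3 and Id1 higher and Id4 lower among the BMP and TGF-beta genes, where Id2 and Tgfbr3 were called without brain replicate 1 and none without limbs replicate 2 as well. It also called the eosinophil chemokine gene Ccl24, the interleukin gene Il1a and Ear2 higher, and of these 3 only Ear2 was called without brain replicate 1, and without both libraries.

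Brain and limbs were also taken separately. Against brain alone, 145 genes were called higher in liver (1.23%) and 183 lower (1.55%), and the shared spread called 279 (2.36%) and 527 (4.46%). Without brain replicate 1 the shared spread called 103 genes higher (0.935%) and 15 lower (0.136%). Without limbs replicate 2 as well it called 104 and 13. Higher and lower calls both fell, the lower ones further, with 1 brain library left, and the cause was not tested. The shared spread was not fitted without brain replicate 2, so whether the lower calls rested on brain replicate 1 was not tested. The same 11 Kupffer cell genes rose against brain: Marco averaged 13.90 ± 0.77 in liver and 6.07 ± 0.31 in brain (SD, n = 2 each), a difference of 7.83 ± 0.74 (SE, limma adjusted p = 0.0461). Genes with lower levels in liver than in brain were led by neural genes, and 7 of 15 tested neural genes fell. Tubb3, neuronal beta-tubulin, was at 5.52 and 5.42 in liver and 12.61 and 11.75 in brain (difference -6.71 ± 0.84 SE, limma adjusted p = 0.0461). Next came Nnat (-5.86), Sbk1 (-5.74), Map2 (-5.67) and Tagln3 (-5.61). Nnat, Map2 and Tagln3 are expressed in developing neurons, and Map2 and Tagln3 were at the floor in liver and limbs. Sall1 averaged 5.42 in liver and 10.13 ± 0.86 in brain (SD, n = 2 each) and narrowly missed the threshold (difference -4.70 ± 0.94 SE, limma adjusted p = 0.0544). Counts in this comparison moved with the scaling: centring each library on its median moved the share of higher calls to 13.6%, against 44.2%, and leaving out any liver or brain library ended all calls.

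Against limbs alone, limma on the 6 libraries called no gene, with 1791 genes at an unadjusted p under 0.05. The shared spread called 239 higher in liver (2.02%) and 45 lower (0.381%), 10 Kupffer cell genes among the higher. Without brain replicate 1 and limbs replicate 2 these counts were 133 and 12. Fcna averaged 15.20 ± 0.41 in liver and 7.58 ± 0.53 in limbs (SD, n = 2 each, difference 7.62, limma adjusted p = 0.0547 on the 6 libraries and 2.47e-06 with the shared spread). Fcrls and Siglech were lower in liver with the shared spread. Stab1, a scavenger receptor of interstitial macrophages and sinusoids, was at 12.60 and 12.47 in liver, 10.72 and 12.15 in brain, and 16.79 and 17.01 in limbs. It stood out in limbs, with liver minus limbs at -4.36 (limma adjusted p = 0.0757 on the 6 libraries and 0.00679 with the shared spread). The comparisons with brain and with limbs share the liver libraries.

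Between brain and limbs, limma on the 6 libraries called no gene, with 2389 at an unadjusted p under 0.05. The shared spread called 564 higher in brain (4.77%) and 170 lower (1.44%), 13 neural genes among the higher and the core genes Csf1r, Mrc1, Sirpa, Irf8 and Maf among the lower. Mrc1, the mannose receptor gene, was at 11.15 and 10.89 in brain and 15.17 and 14.08 in limbs. Beside these 734 calls, almost no gene was called without brain replicate 1, which left 1 brain library. The shared spread was not fitted without brain replicate 2, so whether the calls rested on brain replicate 1 was not tested.

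Liver and brain macrophages of other ages were compared in 1 fit of 20 libraries (liver and brain n of 2 and 3 at E10.25, 2 and 2 at E10.5, 2 and 2 at E12.5, 1 and 2 at E14.5, 2 and 2 at E18.5). Marco averaged 6.08 in liver and 5.42 in brain at E10.5, 13.90 and 6.07 at E12.5, 13.40 and 5.48 at E14.5, and 13.85 and 5.42 at E18.5. Its liver minus brain difference was 0.66, 7.83, 7.92 and 8.42 at these ages, so it was near 0 before E12.5 and large after. Spic followed the same order, with 0.00, 6.34, 5.12 and 7.06, and Cd5l with 1.26, 7.05, 7.74 and 9.45. Clec4f went on to a higher level: it averaged 10.87 in liver at E12.5, 9.55 at E14.5 and 15.25 at E18.5, with brain at 6.05 or less.

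Some genes were already detected in liver at the earliest ages. Fcna averaged 12.02 in liver and 10.02 in brain at E10.25 (difference 2.0, limma adjusted p = 0.423), 15.20 and 7.92 at E12.5, and 15.61 and 5.75 at E18.5, so brain lay lower at each of these later ages. Nr1h3 was called higher in liver already at E10.25 (5.87 ± 0.97 SE, limma adjusted p = 0.0462), with 11.49 in liver and 5.62 in brain, and was not at E10.5 (1.62). Timd4 averaged 10.98 in liver and 7.43 in brain at E10.5 (difference 3.55, limma adjusted p = 0.404). Sall1 stayed at 5.42 in liver from E12.5 to E18.5 and averaged 7.48 in brain at E10.5, 10.13 at E12.5, 12.88 at E14.5 and 12.22 at E18.5.

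Of the 136 genes called higher in liver at E12.5, 70 had a difference above 0 at E10.25, beside 42.7% of all genes, and 2 were called, of 4 called among 13179 genes (0.0304%). At E10.5, 66 were above 0, beside 46.0% of all genes, and none was called, of 1 gene in all (0.00759%). At E14.5, 107 were above 0, beside 40.3%, and 49 were called, beside 171 of all genes (1.3%), with a median of 3.24 against 0.00 over all genes. At E18.5, 116 were above 0, beside 48.7%, and 66 were called, beside 355 of all genes (2.69%), with a median of 3.36. The E12.5 libraries are part of that fit's spread, and E14.5 liver is 1 library. The difference was larger at E12.5 than at E10.5 for 55 genes (0.417%), among them Marco, Fcna and Spic. Those 3 were no longer called without brain replicate 1 (limma adjusted p of 0.139 for Marco, 0.124 for Fcna and 0.226 for Spic). The erythroid mean in liver moved in the same span. It ran from 7.81 to 7.82 over the E10.5 libraries and from 12.36 to 13.45 over those of E12.5. In liver it was still 12.17 at E14.5 and 12.28 to 12.48 at E18.5, beside at most 6.26 in brain at these ages. The hepatocyte mean in liver was 7.4 at E14.5 and 7.72 to 11.03 at E18.5. The part of erythroid and hepatocyte genes in the differences by age was not tested.

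**Figure D5:**
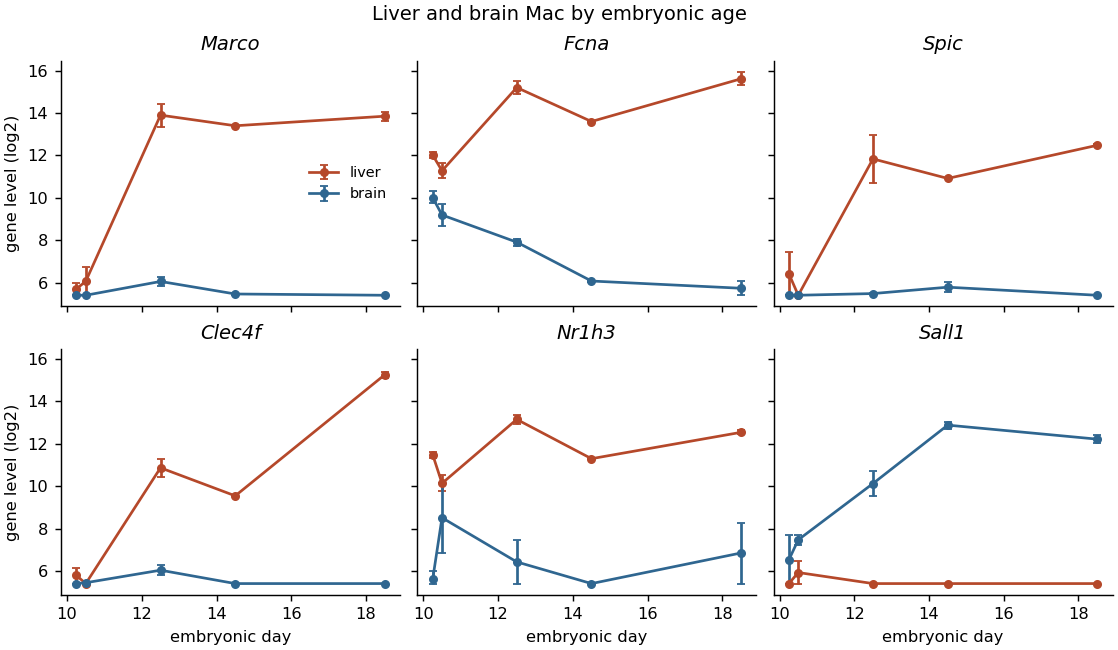
The panels give the log2 level of Marco, Fcna, Spic, Clec4f, Nr1h3 and Sall1 by embryonic day in liver and brain macrophages, with points for means and bars from the lowest to the highest library. The Marco, Spic and Clec4f lines part between E10.5 and E12.5, and the Sall1 means are higher in brain at each age, with liver at the floor from E12.5 on.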

How the data were processed

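RNA of sorted mouse Mac was measured by SMART-Seq2, per the labels. The deposited table holds normalized log2 values per Ensembl transcript, per the file headers and their range (0.836 to 19.006, from which the base was inferred). The authors' normalization is not stated in the labels or headers. The submitters' processing notes list Bowtie 1.1.1, DESeq2 and mm10 but give no roles. With no counts, depth and counting error are unknown.

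Of 37521 transcripts, 36703 were matched to GENCODE release M21 genes (818 were not), giving 14190 genes. Each library's lowest values form a band whose place differed (2.525 to 3.975 in the 6 libraries), so values were floored at 5.425, with a margin of 0.5 over the highest band in any of the 93 libraries. The linear part of a gene's transcripts above the floor was summed, the floor added and the sum returned to log2. A gene was tested with a level of at least 6.425 in 2 libraries.

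Limma 3.58.1 (R 4.3.3, intensity trend, 1 mean per tissue, two-sided, 3 residual degrees of freedom) was fitted to the 6 libraries. Liver was set against the unweighted mean of brain and limbs, and against each. The plan foresaw counts as an option, which the file does not hold. The fit was tested on simulated data. Positive differences in list counts are those above 0.001. Named genes are the 12 called genes with the largest difference in each direction in the first comparison and 5 in the others, with no overlap between groups and a higher mean at least 1 above the filter, besides Clec4f, Spic, Sall1 and members of the 30 gene lists. Genes named outside the rule were chosen after their values were seen. Groups, genes and lists were chosen with earlier results of these data known. Summaries used Python 3.11.15 with pandas 2.3.3 and numpy 2.4.6. Promoter sequences are from RefSeq, GRCm38.p6.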

Additional observations from a re-analysis of the deposited data

Results flagged for a closer look

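For 7 named genes the liver minus brain difference was larger at E12.5 than at E10.5 in limma's test of that change over 20 libraries. Slc4a1 gained 8.10 (SE 1.39, adjusted p = 0.017), Marco 7.17 (SE 1.22, adjusted p = 0.017), Hemgn 6.92 (SE 1.34, adjusted p = 0.0277) and Rhd 6.88 (SE 1.12, adjusted p = 0.0162). Tmcc2 gained 6.58 (SE 1.38, adjusted p = 0.0399), Spic 6.34 (SE 1.32, adjusted p = 0.0399) and Fcna 5.20 (SE 0.81, adjusted p = 0.0145). Marco, Fcna and Spic are Kupffer cell genes, while Slc4a1, Hemgn and Rhd are red cell genes. Without brain replicate 1 of E12.5 the gains were 8.27, 6.95, 6.92, 6.88, 7.62, 6.31 and 5.03 in the order above, and none was called (limma adjusted p from 0.124 for Fcna to 0.226 for Spic). Groups of 2 libraries are too small for a check of single outlying values.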

How the results depend on the processing

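The 26 differences named by the rule or as markers kept their direction in the 527 alternative values that could be computed: 296 stayed on their side of the threshold, 228 lost the call and 3 gained it. Where the groups do not overlap, leaving out a library cannot turn the direction. Counts of calls moved much more, in the order liver against brain and limbs, liver against brain, liver against limbs, brain against limbs. The counts were 137, 328, 0 and 0 as reported. They were 46, 1, 1 and 0 with quantile normalization, 21, 590, 1 and 714 with libraries centred on their medians, and 127, 598, 1 and 0 with no common floor. They were 134, 689, 0 and 365 with a floor from the 6 libraries, 62, 3, 5 and 0 with a raised floor, 1, 0, 0 and 0 with no filter, and 166, 410, 48 and 0 with a raised filter. They were 150, 0, 0 and 0 with the highest transcript per gene, 442, 806, 284 and 734 with the shared spread, and 69, 24, 32 and 0 with no intensity trend. With brain and limbs as 1 group the first count was 46. Leaving out each library in turn gave 0 to 86, 0 to 36, 0 to 592 (592 without limbs replicate 1) and 0 to 0.

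Added after seeing the data, centring on the macrophage core genes gave 4, 0, 2 and 1, and leaving out brain replicate 1 and limbs replicate 2 gave 0 in each. The shared spread without brain replicate 1 gave 240, 118, 261 and 3, and without both 203, 117, 145 and 0. The median difference over all genes, 0.28 in the first comparison, was 0.05 after quantile normalization, 0.01 after median centring and -0.49 after core centring. The cause of these moves was not tested. With the replicate block the count was 0 in each comparison. Same-numbered libraries did not deviate together (r of deviations -0.068, -0.035 and -0.153), so no pairing by number was seen. With 2 libraries per tissue a shared origin could go unseen. Precision is limited by 2 libraries per tissue.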
